A study of Mus musculus with 16 samples.

Results

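Livers of mice with and without Mfap2 were compared 4 weeks after carbon tetrachloride (CCl4) was stopped. The series holds bulk RNA sequencing of 16 frozen livers in 4 groups of 4 mice, and the 8 libraries described here are the 2 groups sampled after cessation: Mfap2+/+ (wild type) and Mfap2-/- (knockout) mice that had 8 weeks of intraperitoneal CCl4 and then 4 weeks without it. The other 8 libraries come from mice of the same genotypes sampled at the end of the 8 weeks. All 16 mice had CCl4, and mice that never had it were not analysed here. The labels number the mice and give no strain, age or sex, nor how the knockout allele was made or in which cells Mfap2 was lost. Libraries after cessation were made with either of a pair of kits, NEBNext or VAHTS, and which mouse had which is not in the labels, so kit and genotype cannot be told apart here. Of 12922 genes listed after cessation, the 11032 with a mean of at least 0.5 FPKM (fragments scaled by transcript length and library total) were tested. All differences are knockout minus wild type on log2(FPKM + 1), a scale that makes differences of low genes look smaller than they are. A limma p sets a difference against the spread between mice of a genotype, moderated over all genes. An exact permutation p is the share of relabellings of the 8 mice with a difference at least as large.

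CCl4 is activated by cytochrome P450 enzymes in hepatocytes near the central vein and kills them, and with repeated doses stellate cells turn into contractile myofibroblasts that lay down collagen scar. When dosing stops, myofibroblasts disappear or become quiescent again, macrophages switch to a matrix-degrading state, and scar is partly resorbed. Mfap2 encodes microfibril-associated glycoprotein 1 (MAGP1), a small protein on fibrillin microfibrils that also binds members of the TGF-beta family.

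Per-mouse values are given in the order of mice 1 to 4 of each genotype. The 8 libraries summed to between 878889 and 959698 FPKM, and their read depth is unknown. Transcripts encoded by the mitochondrial genome (mt- genes) made up 38.1%, 29.8%, 25.9% and 28.3% of the FPKM in wild-type and 23.5%, 32.4%, 37.5% and 25.6% in knockout libraries, means that differed by less than the spread between mice (exact permutation p = 0.83). Wild-type mouse 1, knockout mouse 2 and knockout mouse 3 stood apart on the first principal component, which held 45.9% of the variance, and they had the 3 highest mitochondrial shares. The hepatocyte transcript Alb (albumin) read 28364, 43372, 36419.8 and 43598 FPKM in the wild type and 44203, 30893, 16731 and 45495 FPKM in the knockout, lowest in knockout mouse 3. The median log2 difference over all genes was 0.10, and 70.7% of all genes tested were higher, so each list below is read against these values. Under median-ratio scaling and quantile normalization, tried beside the deposited values, 47.8% and 47.9% of all genes were higher.

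Mfap2 itself marked the genotypes. Mfap2 (ENSMUSG00000060572, on the plus strand of chromosome 4 from 141010418 to 141015984 in mm10) stood at 0.17, 0.21, 0.44 and 0.47 FPKM in wild-type livers and was listed at 0 in all 4 knockout livers (exact permutation p = 0.0286, the smallest that 4 mice against 4 can give). Fbn1, the gene of fibrillin 1 in the microfibril core, was under the filter as well and stood at 0.26, 0.09, 0.24 and 0.15 FPKM in the wild type and 0.34, 0.43, 0.75 and 0.57 FPKM in the knockout. Each knockout mouse lay above each wild-type mouse for Fbn1. Of 18 tested genes of microfibrils and elastic fibres, all 18 were higher in the knockout, a count that stayed at 18 under median-ratio scaling and was 17 under quantile normalization. The list's median lay 0.20 above that of all genes. With a mouse left out it lay from 0.14 (without wild-type mouse 2) to 0.38 (without wild-type mouse 1) above. Only 2 of the 18 genes had an unadjusted limma p under 0.05. Those with such a p were Emilin1, at 5.8 ± 0.664 and 9.08 ± 1.97 FPKM in wild-type and knockout livers (SD, n = 4), and Emilin2, at 1.05 ± 0.185 and 1.78 ± 0.354 FPKM, which encode elastic fibre glycoproteins. Eln, the elastin gene, overlapped between the genotypes at 1.38, 0.52, 1.44 and 0.6 FPKM in the wild type and 0.46, 1.64, 2.3 and 2.72 FPKM in the knockout.

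No gene passed the threshold of 0.05 in limma after adjustment over the 11032 genes tested, and 0 passed after the mt- genes were dropped. At an unadjusted p under 0.05, 767 genes were higher in the knockout (6.95% of those tested) and 166 lower (1.5%). Without overlap between the genotypes were 399 higher genes (3.62%) and 109 lower ones (0.988%). Counts of list members at that p or without overlap are read beside these shares. The lowest adjusted p of any gene was that of Acta2, 0.215, and no alternative setting below brought a gene past the threshold, so the genes below are described by their values and none is called changed. Higher in the knockout were genes of contractile myofibroblasts, collagen, macrophages, chemokines and the acute phase. Lower were targets of the lipid-sensing receptor PPAR-alpha, genes of P450 metabolism, some clock genes and some glucocorticoid targets. Without knockout mouse 3, 445 genes (4.03%) were higher and 123 (1.11%) lower at an unadjusted p under 0.05, and without wild-type mouse 1 and knockout mice 2 and 3, 756 (6.85%) and 205 (1.86%).

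**Figure D1:**
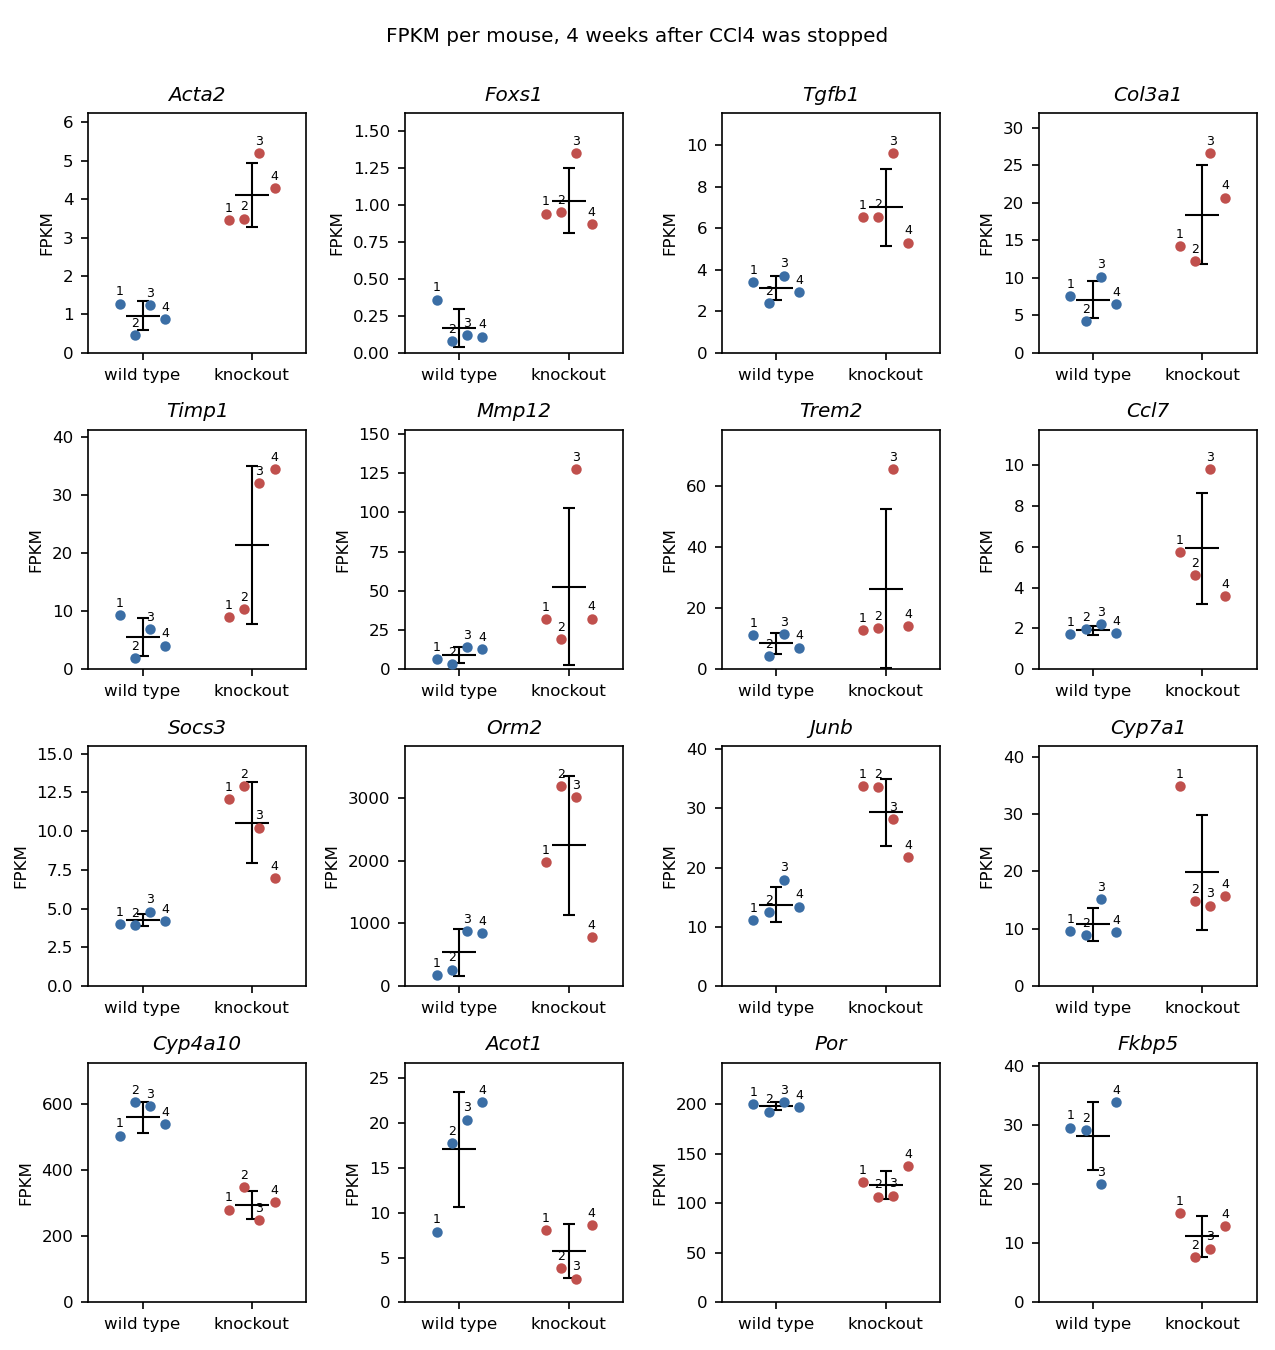
FPKM of 16 genes in each of the 8 livers 4 weeks after CCl4 was stopped, on linear axes from 0; points are mice with their label numbers, and the bars give the mean and SD of 4 mice. Acta2, Tgfb1, Col3a1, Ccl7, Socs3 and Junb do not overlap between the genotypes upward, and Cyp4a10, Por and Fkbp5 do not overlap downward, while for Mmp12 and Trem2 knockout mouse 3 lies far above the other 7 mice.

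Contractile and mesenchymal genes were higher in the knockout, with Acta2 at the lowest p of all genes. Acta2 (ENSMUSG00000035783, chromosome 19, 34241090 to 34255590 of mm10, minus strand), which encodes alpha smooth muscle actin, the classic mark of the myofibroblast, stood at 1.28, 0.46, 1.24 and 0.88 FPKM in the wild type and 3.45, 3.49, 5.2 and 4.28 FPKM in the knockout. Every knockout mouse was far above every wild-type mouse, and the means were 4.25-fold apart. The log2 difference was 1.39 ± 0.18 (SE, limma adjusted p = 0.215), and 1.29 without knockout mouse 3. Foxs1, a forkhead transcription factor found in mural cells, was under the filter level in each wild-type liver and passed only through its knockout values, at 0.36, 0.08, 0.12 and 0.11 FPKM in the wild type and 0.94, 0.95, 1.35 and 0.87 FPKM in the knockout. It did not overlap either and differed by 0.80 ± 0.13 (limma adjusted p = 0.232). Given its low wild-type values, the filter fixed the direction of Foxs1, so it is not counted as support. Myl9, the regulatory light chain of smooth muscle myosin, overlapped through knockout mouse 1, at 2.37, 1.28, 3.27 and 1.59 FPKM in the wild type and 3.19, 4.87, 5.6 and 5.37 FPKM in the knockout. Vim, the intermediate filament vimentin of mesenchymal cells, stood at 30.6 ± 3.64 FPKM in the wild type and 67.1 ± 25.5 FPKM in the knockout (SD, n = 4) without overlap.

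Acta2 and Myl9 are targets of serum response factor, which binds the CArG box, and the promoters of these genes are shown because both are contractile genes among the stellate cell markers with the smallest p. In the 250 bases before the RefSeq start of each gene (GRCm38.p6), CArG boxes were searched with up to 1 base other than A or T in their inner part, a pattern found in 8.59% of 32851 promoter windows of that length, and in 1.47% with none. The pattern reads the same on both strands. Acta2 holds a pair of matches, starting 84 and 34 bases before its start (chr19:34255438-34255467 and chr19:34255388-34255417, minus strand), in the untranslated first exon of a longer GENCODE transcript. Myl9 holds matches at 161 and 99 bases (chr2:156775293-156775322 and chr2:156775355-156775384, plus strand), the first of them with no other base inside. Each line gives 30 bases, 5′ to 3′, with the match in capitals.
Acta2, distal: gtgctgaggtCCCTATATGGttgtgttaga
Acta2, proximal: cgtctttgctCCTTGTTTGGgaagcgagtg
Myl9, distal: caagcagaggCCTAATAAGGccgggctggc
Myl9, proximal: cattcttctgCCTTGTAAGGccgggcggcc

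Of 17 tested markers of activated stellate cells and myofibroblasts, all 17 were higher (14 under median-ratio scaling, 15 under quantile normalization, the order kept below), 6 of them at an unadjusted p under 0.05 and 3 without overlap. Their median lay 0.37 above that of all genes, 0.19 without knockout mouse 3 and 0.23 without wild-type mouse 4. In bulk tissue, more cells of a type and more RNA per cell cannot be told apart. The summed level of the list overlapped, at 197 to 347 FPKM in the wild type and 276 to 398 FPKM in the knockout. Its score, the average over its genes of log2(FPKM + 1) after each gene is centred on the 8 libraries, was -0.50 to 0.03 in wild-type and 0.03 to 0.63 in knockout mice, and did not overlap by a narrow margin. With mt- genes dropped the score overlapped, at 0.18 in wild-type mouse 1 and -0.08 in knockout mouse 1. Markers of sinusoidal endothelium were higher for 16 of 17 genes (13 and 12 under these scalings), 0 at an unadjusted p under 0.05. Without knockout mouse 3, 13 of these 17 markers were higher, with a median 0.02 above that of all genes, against 0.21 with it. Those of vascular endothelium were higher for 13 of 13 (13 and 12 under these scalings), 1 at that level, the clotting factor carrier Vwf, at 4.02 ± 1.36 and 7.75 ± 3.64 FPKM (SD, n = 4), and 0 without knockout mouse 3.

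Fibrillar collagen transcripts stood higher in the knockout too. Col3a1, the alpha chain of type III collagen, stood at 7.59, 4.22, 10.1 and 6.47 FPKM in the wild type and 14.2, 12.2, 26.6 and 20.7 FPKM in the knockout. Its genotypes did not overlap, and the difference was 1.25 ± 0.28 (limma adjusted p = 0.423). Col5a2, of type V collagen, likewise separated the genotypes, at 0.858 ± 0.221 and 2.17 ± 0.56 FPKM in wild-type and knockout livers (SD, n = 4). Col1a1 and Col1a2, the chains of type I collagen, did not. Col1a1 stood at 2.89, 0.99, 3.56 and 1.96 FPKM in the wild type and 3.49, 2.83, 11.6 and 5.67 FPKM in the knockout, and its difference of 0.95 ± 0.38 was 0.60 without knockout mouse 3. For Col1a2 the values were 5.86, 2.21, 5.16 and 3.00 FPKM in the wild type and 5.3, 5.87, 15.7 and 11.7 FPKM in the knockout, with knockout mice 3 and 4 above all others. Of 11 tested fibrillar collagen genes, all 11 were higher as deposited (10 under either scaling), 6 at an unadjusted p under 0.05 and 3 without overlap, with a median 0.42 above that of all genes. The summed level of the 12 listed fibrillar collagen genes, 1 of them under the filter, was 21.9 to 41.98 FPKM in the wild type and 45.6 to 90.7 FPKM in the knockout, without overlap as deposited. With mt- genes dropped the genotypes overlapped on the score of the list, at 0.14 in wild-type mouse 1 and -0.08 in knockout mouse 1.

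Other matrix genes were mostly higher. Lox, which cross-links collagen and elastin and passed the filter only through its knockout values, stood at 0.29, 0.13, 0.34 and 0.18 FPKM in the wild type and 0.51, 0.23, 1.41 and 1.34 FPKM in the knockout. Knockout mice 3 and 4 were high and knockout mouse 2 lay within the wild-type range. Sparc, a collagen-binding matricellular protein, stood at 16.5 ± 5.2 FPKM in the wild type and 33.8 ± 10.9 FPKM in the knockout (SD, n = 4) with overlap, and Serpinh1, the collagen chaperone, at 6.85 ± 2.28 and 11.8 ± 4.26 FPKM. Proteoglycan and matricellular genes were higher for all 13 tested (11 and 12 under these scalings) with 6 at an unadjusted p under 0.05, and 2 without knockout mouse 3. Among them, Bgn (biglycan) stood at 35.3 ± 12.5 and 58.2 ± 15.97 FPKM and Spon2, a secreted matrix protein, at 2.03 ± 0.65 and 5.43 ± 3.06 FPKM. Of 15 basement membrane genes, all 15 were higher (12 and 11 under these scalings), 6 at that level and 1 without knockout mouse 3, with Col15a1 at 2.98 ± 0.835 and 5.35 ± 2.22 FPKM. Of 18 genes of collagen processing and cross-linking, 15 were higher (11 and 12 under these scalings), 3 at that level, and 0 without knockout mouse 3.

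Tgfb1 (ENSMUSG00000002603, chromosome 7, 25687002 to 25705077 of mm10, plus strand), the main profibrotic cytokine, stood at 3.4, 2.39, 3.71 and 2.91 FPKM in the wild type and 6.53, 6.56, 9.62 and 5.3 FPKM in the knockout. The genotypes did not overlap, with a difference of 0.95 ± 0.19 (limma adjusted p = 0.298). Of 19 tested genes of the TGF-beta pathway, 18 were higher (15 and 13 under these scalings), but only 3 had an unadjusted p under 0.05 and the median lay 0.13 above that of all genes. Leaving out knockout mouse 3 left 1 with such a p, and without knockout mouse 4 the median was 0.08. Tgfbi, a secreted protein induced by TGF-beta, was another of these, at 15.2, 7.88, 16.8 and 8.9 FPKM in the wild type and 21.7, 15.6, 39.95 and 16.4 FPKM in the knockout. It overlapped between the genotypes through knockout mice 2 and 4.

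Among 24 matrix proteases, the macrophage elastase Mmp12 had the smallest p. Mmp12 (ENSMUSG00000049723, chromosome 9, 7344381 to 7369499 of mm10, plus strand) stood at 6.49, 3.37, 14.2 and 12.9 FPKM in the wild type and 31.8, 19.2, 127 and 32.3 FPKM in the knockout. All knockout mice lay above all wild-type mice, and knockout mouse 3 was about 4 times above the next. The log2 difference was 2.17 ± 0.57 (limma adjusted p = 0.499), and 1.62 without that mouse. Plau, the urokinase that activates plasmin, did not overlap either, at 0.65, 0.5, 0.78 and 0.79 FPKM in the wild type and 1.94, 1.5, 4.72 and 1.01 FPKM in the knockout. Ctss, the cathepsin of antigen-presenting cells, stood at 59.2 ± 14.8 FPKM in the wild type and 163 ± 102 FPKM in the knockout (SD, n = 4), again without overlap. The collagenase Mmp13, which passed the filter only through its knockout values, stood at 0.08, 0.24, 0.49 and 0.35 FPKM in the wild type and 0.59, 0.57, 2.18 and 0.2 FPKM in the knockout. Knockout mouse 4 was below 3 wild-type mice, and the difference of 0.46 was 0.17 without knockout mouse 3. Mmp2, the gelatinase of stellate cells, overlapped at 3.88, 1.36, 3.43 and 1.12 FPKM in the wild type and 2.8, 1.72, 4.14 and 4.92 FPKM in the knockout, and Mmp14, the membrane protease that activates it, stood at 12.4 ± 3.71 and 23.2 ± 11.1 FPKM with overlap. Of 24 tested proteases, 22 were higher (19 and 20 under these scalings), 7 at an unadjusted p under 0.05 and 6 without overlap.

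Timp1, the secreted inhibitor of these metalloproteinases, was split within the knockout group. Its values were 9.31, 1.91, 6.94 and 4.06 FPKM in the wild type and 8.97, 10.4, 31.96 and 34.4 FPKM in the knockout. Knockout mice 3 and 4 lay far above the rest, and knockout mouse 1 was below wild-type mouse 1. Its difference was 1.69 ± 0.50 (limma adjusted p = 0.512), 1.43 without knockout mouse 3 and 1.94 without the 3 libraries that stood apart. Of 13 protease inhibitor genes, 12 were higher (10 and 12 under these scalings), 4 at an unadjusted p under 0.05, and 1 without knockout mouse 3.

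Of the 51 lists, that of scar-associated macrophages had the highest median difference. For 12 markers of scar-associated macrophages, the Trem2+ lipid-handling macrophages of fibrotic liver, all 12 were higher, also under either scaling, with 9 at an unadjusted p under 0.05 and 7 without overlap. Their median lay 1.08 above that of all genes, and 0.64 without knockout mouse 3, where 7 genes were at that level. Trem2, a lipid-sensing receptor, stood at 11.3, 4.36, 11.6 and 7.16 FPKM in the wild type and 12.8, 13.5, 65.5 and 14.1 FPKM in the knockout. Outside knockout mouse 3 the genotypes were separated only by the step from 11.6 to 12.8 FPKM, and the difference of 1.22 ± 0.50 (limma adjusted p = 0.563) was 0.67 without that mouse. Gpnmb, a glycoprotein of lipid-laden macrophages, stood at 4.53, 2.16, 10.8 and 6.12 FPKM in the wild type and 15.5, 11.8, 79.6 and 18.9 FPKM in the knockout, again with knockout mouse 3 far above. Spp1, osteopontin, overlapped, at 98.8, 32.7, 182 and 59.4 FPKM in the wild type and 289, 68.6, 330.1 and 159 FPKM in the knockout. Tyrobp, the signalling adaptor of Trem2, stood at 75.9 ± 11.6 FPKM in the wild type and 137 ± 46.4 FPKM in the knockout (SD, n = 4) without overlap.

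Markers of monocytes and recruited macrophages behaved alike. Their 14 symbols correspond to 15 listed entries, of which 14 were higher, also under either scaling, 9 at an unadjusted p under 0.05 and 7 without overlap. Lyz2, lysozyme of myeloid cells, stood at 188, 161, 261 and 224 FPKM in the wild type and 444, 317, 689 and 477 FPKM in the knockout. The lowest knockout mouse was above the highest wild-type mouse, and the difference was 1.17 ± 0.25 (limma adjusted p = 0.327) and 0.98 without knockout mouse 3. Plac8, expressed by monocytes, stood at 15.1, 12.8, 15.9 and 17.3 FPKM in the wild type and 33.1, 22.5, 22.8 and 24.4 FPKM in the knockout, with knockout mouse 1 highest. The summed level of the list was 272 to 455 FPKM in the wild type and 579 to 1630.3 FPKM in the knockout, and it did not overlap. The score of the list overlapped, at -0.83 to -0.06 in wild-type and -0.07 to 1.19 in knockout mice.

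Markers of resident macrophages were mostly higher. Clec4f, the lectin found on Kupffer cells, stood at 156, 92.5, 73.3 and 91.6 FPKM in the wild type and 86.04, 103, 37.8 and 99.7 FPKM in the knockout, lowest in knockout mouse 3 and highest in wild-type mouse 1. The genotypes overlapped, and the difference of -0.38 ± 0.34 turned to 0.12 without the 3 libraries that stood apart. C1qb and C1qc, complement subunits made by most tissue macrophages, did not overlap, at 103 ± 14.5 and 171 ± 45.9 FPKM and 68.4 ± 7.24 and 121 ± 32.9 FPKM in wild-type and knockout livers (SD, n = 4). Of 14 Kupffer cell markers, 12 were higher (11 and 12 under these scalings), 4 at an unadjusted p under 0.05, and without the 3 libraries that stood apart 13 were higher, 10 at that level. Clec4f was 1 of the 2 members that stood lower. MHC class II genes were higher for 10 of 10, also under either scaling, 3 at that level and 2 without knockout mouse 3. Their median lay 0.56 above that of all genes, and 0.23 without that mouse. The invariant chain Cd74 stood at 73.96, 42.1, 105 and 57.9 FPKM in the wild type and 119.8, 116, 223 and 96.5 FPKM in the knockout. Knockout mouse 4 was below wild-type mouse 3. Neutrophil markers were higher for 11 of 11 (10 under either scaling) with 0 at that level, and without knockout mouse 3 only 4 of 11 were higher and their median lay -0.31 relative to that of all genes. The neutrophil sum stood at 68.6 to 375 FPKM in the wild type and 111 to 771 FPKM in the knockout. For T and NK cells 6 of 8 markers were higher and for B and plasma cells 6 of 7, with 1 and 0 at that level.

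Chemokines separated the genotypes more evenly across mice. Ccl7, which attracts monocytes, stood at 1.73, 1.96, 2.22 and 1.76 FPKM in the wild type and 5.74, 4.61, 9.77 and 3.59 FPKM in the knockout. Every knockout mouse exceeded every wild-type mouse, and the difference was 1.18 ± 0.24 (limma adjusted p = 0.309). Il1b, the inflammasome cytokine, stood at 3.28, 1.95, 2.88 and 2.87 FPKM in the wild type and 6.59, 5.15, 5.71 and 4.5 FPKM in the knockout, without overlap. Ccl2, the main ligand of Ccr2 on monocytes, stood at 4.7, 4.27, 2.78 and 5.53 FPKM in the wild type and 12.8, 9.57, 12.8 and 5.44 FPKM in the knockout. Knockout mouse 4 was just below wild-type mouse 4. Of 24 chemokine and cytokine genes, all 24 were higher (21 and 23 under these scalings), 14 at an unadjusted p under 0.05 and 8 without overlap, with a median 0.52 above that of all genes. The score of the list was -0.45 to -0.23 in wild-type and 0.17 to 0.49 in knockout mice.

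Hepatocyte acute phase genes, secreted in response to interleukin-6 and interleukin-1, were higher for 24 of 25, 10 at an unadjusted p under 0.05 and 1 lower at that level. Orm2, an orosomucoid, stood at 168, 258, 870.4 and 843 FPKM in the wild type and 1977, 3189.99, 3016 and 779 FPKM in the knockout. Knockout mice 1 to 3 were above all wild-type mice, and knockout mouse 4 lay within the wild-type range. The difference of 2.21 ± 0.61 was 1.11 without the 3 libraries that stood apart. Lcn2, a siderophore-binding lipocalin, stood at 206, 312, 884 and 874 FPKM in the wild type and 1540.2, 1534, 2899 and 765 FPKM in the knockout, and knockout mouse 4 again lay within the wild-type range. Saa3, a serum amyloid made by macrophages and other cells, separated the genotypes, at 144, 85.4, 161 and 211 FPKM in the wild type and 284, 356, 397 and 394 FPKM in the knockout, with a difference of 1.30 ± 0.26 (limma adjusted p = 0.298). The median of the list lay 0.53 above that of all genes 0.39 without the 3 libraries, 0.25 without knockout mouse 1 and 0.21 without wild-type mouse 1.

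Socs3 (ENSMUSG00000053113, chromosome 11, 117966079 to 117970047 of mm10, minus strand), the feedback inhibitor of interleukin-6 signalling and a target of STAT3, stood at 4.01, 3.93, 4.79 and 4.2 FPKM in the wild type and 12.1, 12.9, 10.2 and 6.98 FPKM in the knockout. The genotypes did not overlap, and the difference was 1.11 ± 0.19 (limma adjusted p = 0.232). Its promoter is shown because Socs3 had the lowest p among acute phase genes. In the 250 bases before its RefSeq start (GRCm38.p6), the STAT motif TTCNNNGAA, which reads the same on both strands and is in 7.02% of all such windows, matched once, 154 bases before the start (chr11:117969501-117969530, minus strand). In GENCODE M21 this stretch lies upstream of the coding transcript and in the intron of a longer non-coding transcript of Socs3, so it is inside the gene as annotated.
Socs3: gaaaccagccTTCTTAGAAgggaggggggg

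Immediate early genes, the fast transcriptional response to stress and growth signals, were higher for 20 of 21 (20 under either scaling), 12 at an unadjusted p under 0.05 and 1 lower at that level. Junb, an AP-1 subunit, stood at 11.1, 12.5, 17.9 and 13.4 FPKM in the wild type and 33.8, 33.7, 28.1 and 21.8 FPKM in the knockout. All knockout mice were above all wild-type mice, with a difference of 1.04 ± 0.20 (limma adjusted p = 0.265). Atf3, a stress-induced repressor, stood at 2.6, 1.28, 2.95 and 2.26 FPKM in the wild type and 4.34, 4.91, 17.2 and 3.89 FPKM in the knockout, and 0.74 was its difference without knockout mouse 3. Ier3, an early response gene linked to cell survival, stood at 2.79 ± 0.554 and 5.45 ± 1.57 FPKM (SD, n = 4) without overlap. Higher at an unadjusted p under 0.05 were 7 immediate early genes without knockout mouse 3 and 3 without the 3 libraries that stood apart. Hmox1, the haem-degrading enzyme induced by oxidative stress and haem, stood at 22.4, 22.7, 22.5 and 19.2 FPKM in the wild type and 52.99, 32.7, 71.4 and 28.7 FPKM in the knockout, the one NRF2 target of 22 at that level.

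**Figure D2:**
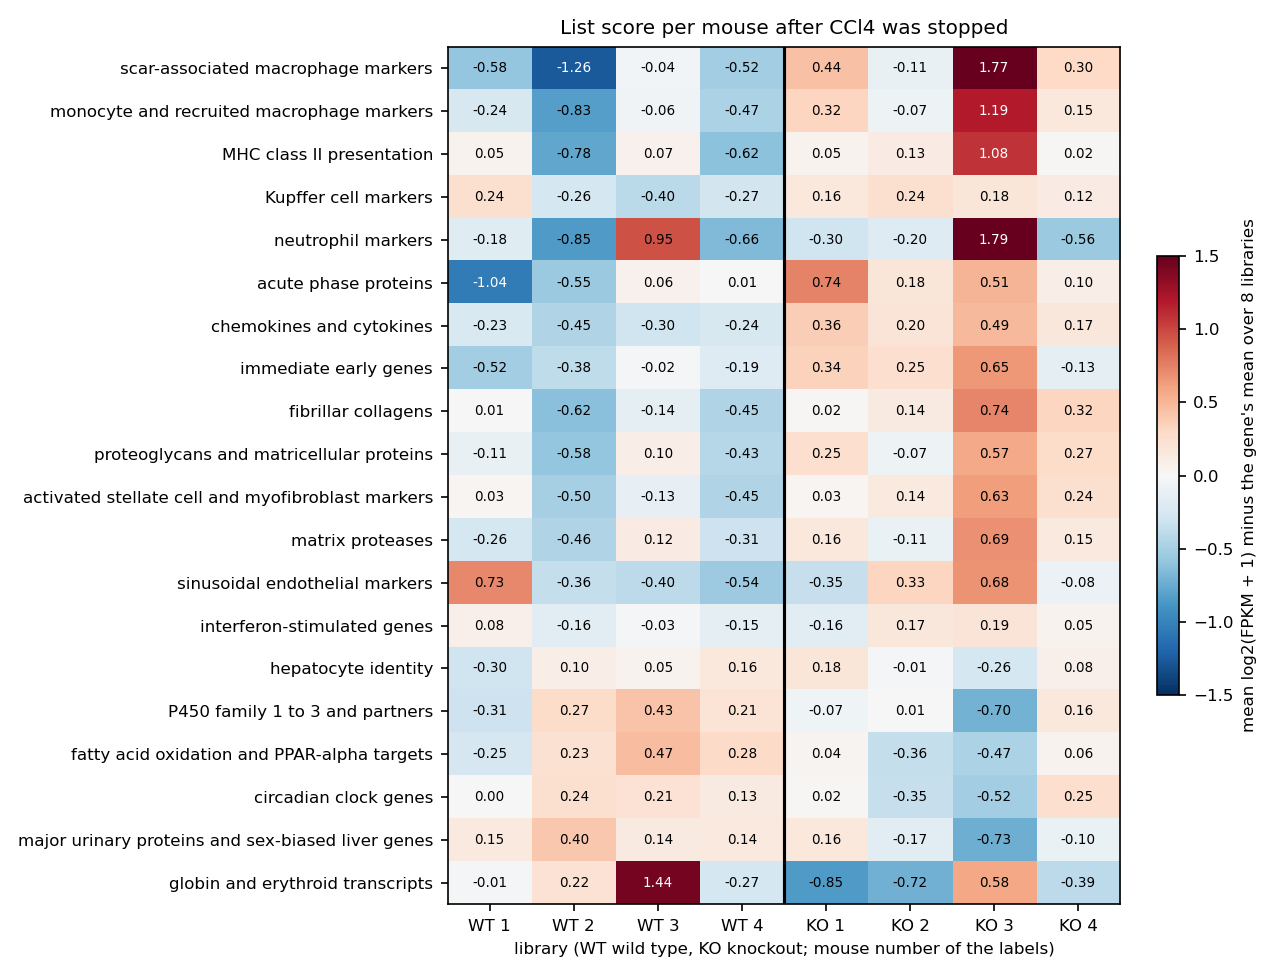
List scores in each of the 8 livers for 20 gene lists, as the average log2(FPKM + 1) of the listed genes, each centred on the 8 libraries; red is above and blue below 0. Knockout mouse 3 has the highest scores for markers of scar-associated macrophages (1.77), monocytes and recruited macrophages (1.19) and neutrophils (1.79). For Kupffer cell markers its score of 0.18 lies below those of knockout mouse 2 and wild-type mouse 1 (both 0.24). The chemokine scores of all 4 knockout mice lie above those of all 4 wild-type mice.

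Fatty acid oxidation and PPAR-alpha target genes stood lower in the knockout. Cyp4a10 (ENSMUSG00000066072, chromosome 4, 115518264 to 115533649 of mm10, plus strand), a fatty acid omega-hydroxylase and one of the most PPAR-alpha-dependent genes of mouse liver, stood at 505, 606, 595 and 539 FPKM in the wild type and 281, 349, 249 and 304 FPKM in the knockout. The genotypes did not overlap, and the difference was -0.93 ± 0.16 (limma adjusted p = 0.232) and -0.85 without knockout mouse 3. Pex11a, which drives peroxisome division and is another target, stood at 50.9, 58.5, 39.4 and 54.6 FPKM in the wild type and 28.4, 23.7, 25.5 and 32.4 FPKM in the knockout, also without overlap. Acot1, an acyl-CoA thioesterase, stood at 7.9, 17.8, 20.4 and 22.3 FPKM in the wild type and 8.03, 3.79, 2.65 and 8.63 FPKM in the knockout. Wild-type mouse 1 lay among the knockout mice, and the difference was -1.44 ± 0.38 (limma adjusted p = 0.499). Of 38 tested genes of the list, 35 were lower, with 37 under median-ratio scaling and 36 under quantile normalization. At an unadjusted p under 0.05, 9 were lower and 0 higher, and 7 were lower without overlap. Without knockout mouse 3, 30 were lower, 7 at that level. The median lay at -0.41 relative to all genes, and at -0.28 without the 3 libraries that stood apart.

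Some lipid droplet genes stood lower too. Plin5, the perilipin that ties droplets to mitochondria, stood at 12.95, 21.1, 13.9 and 23.5 FPKM in the wild type and 8.91, 7.59, 7.28 and 12.4 FPKM in the knockout. Plin4, a perilipin of nascent droplets, stood at 3.2 ± 1.32 FPKM in the wild type and 1.03 ± 0.521 FPKM in the knockout (SD, n = 4), and Acacb, the acetyl-CoA carboxylase that restrains mitochondrial fat oxidation, at 9.01 ± 0.913 and 5.42 ± 1.5 FPKM. None of these overlapped between the genotypes. In the list of lipogenesis and lipid droplets, 19 of 30 genes were lower (24 and 21 under these scalings), 6 of them at an unadjusted p under 0.05, and 2 were higher at that level. Over all genes 1.5% were lower and 6.95% higher at that level, so the higher count was near the share of all genes. Without knockout mouse 3, 13 were lower and 17 higher. One of the higher genes was Fabp4, a fatty acid carrier of adipocytes and macrophages, at 12.8, 6.73, 15.02 and 8.01 FPKM in the wild type and 15.5, 15.4, 52.3 and 20.95 FPKM in the knockout. Knockout mouse 3 was highest, and knockout mice 1 and 2 were just above the wild-type range. Of 14 adipose and muscle transcripts, a check for tissue taken with the liver, 10 were not listed, Adipoq, Plin1 and Ckm among them. Of the 3 that were tested, Fabp4 and the muscle gene Tnni2 were higher at an unadjusted p under 0.05 without overlap and Mylpf was lower. The sum of the 4 that were listed was 9.39 to 18.5 FPKM in the wild type and 17.9 to 56.6 FPKM in the knockout, highest in knockout mouse 3. The part of such tissue in other values was not tested.

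P450 enzymes and their electron donor were lower too. Por (ENSMUSG00000005514, chromosome 5, 135670033 to 135735326 of mm10, plus strand), the reductase that serves all microsomal P450 enzymes, stood at 200.4, 193, 202 and 197 FPKM in the wild type and 121, 107, 108 and 138 FPKM in the knockout. The wild-type mice agreed within 10 FPKM and no knockout mouse reached them, for a difference of -0.74 ± 0.14 (limma adjusted p = 0.265). Cyp27a1, a mitochondrial sterol hydroxylase, stood at 202, 169, 164 and 187 FPKM in the wild type and 105, 132, 76.6 and 132 FPKM in the knockout, also without overlap. Nr1i3, the xenobiotic receptor CAR, overlapped, at 154, 143, 114 and 149 FPKM in the wild type and 68.1, 108, 60.6 and 119.6 FPKM in the knockout. Of 41 tested P450 genes and partners, 36 were lower (38 and 37 under these scalings), 3 at an unadjusted p under 0.05, with a median of -0.36 relative to all genes. Without knockout mouse 3, 27 were lower, 1 at that level, and the relative median was -0.19. Cyp2e1, the enzyme that activates CCl4, overlapped at 1606, 2404, 3582 and 2967 FPKM in the wild type and 2327, 1428, 1441 and 2810.3 FPKM in the knockout, and Glul, glutamine synthetase of the hepatocytes next to the central vein, differed by -0.14 ± 0.17.

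Bile acid genes did not share a direction. Cyp7a1, whose product starts bile acid synthesis from cholesterol, stood higher in the knockout, at 9.61, 8.89, 15.1 and 9.33 FPKM in the wild type and 34.9, 14.8, 14.03 and 15.7 FPKM in the knockout. Wild-type mouse 3 was above knockout mice 2 and 3, and knockout mouse 1 was far above all others. The difference was 0.76 ± 0.29 (limma adjusted p = 0.548). Cyp39a1, an oxysterol hydroxylase, stood lower, at 5.12 ± 1.08 and 2.93 ± 0.752 FPKM (SD, n = 4). Of 29 bile acid genes, 4 were lower and 2 higher at an unadjusted p under 0.05, beside 1.5% and 6.95% of all genes. The higher count was near the share of all genes. Without knockout mouse 3, 18 of the 29 were higher, against 10 with it, and 2 were lower and 1 higher at that level. Major urinary proteins and other sex-biased liver genes were lower for 19 of 25, also under either scaling, 5 at that level and 3 without knockout mouse 3. Mup15 stood at 4.31, 6.93, 7.16 and 7.25 FPKM in the wild type and 2.52, 2.75, 1.29 and 2.93 FPKM in the knockout without overlap, but reads of this near-identical gene family can be split between its members, so its value is uncertain. Cyp2a4, a steroid hydroxylase with a close paralogue and the same limit, stood at 823 ± 226 and 471 ± 214 FPKM with overlap.

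Hepatocyte identity genes as a list differed little. Of 19, 7 were higher and 12 lower, 0 at an unadjusted p under 0.05, and without knockout mouse 3, 14 were higher. Their sum stood at 62584 to 81151 FPKM in the wild type and 44694 to 80424 FPKM in the knockout. Beside the lower metabolic genes, the sum of scar-associated macrophage markers stood at 407 to 835 FPKM in the wild type and 702 to 2491 FPKM in the knockout, and that of monocyte and recruited macrophage markers as given above. The part of these cell markers in the lower metabolic values was not tested. Urea cycle and amino acid genes were lower for 25 of 33 (19 of 33 without knockout mouse 3) with 1 at that level (0 without that mouse), and 51 nuclear subunits of oxidative phosphorylation had 0 at that level in either direction.

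Some clock and glucocorticoid-responsive genes were lower. Fkbp5 (ENSMUSG00000024222, chromosome 17, 28399094 to 28517527 of mm10, minus strand), a co-chaperone and one of the most sensitive glucocorticoid receptor targets, stood at 29.5, 29.2, 20.02 and 33.8 FPKM in the wild type and 15.1, 7.59, 9.1 and 12.9 FPKM in the knockout. The genotypes did not overlap, and the difference was -1.28 ± 0.23 (limma adjusted p = 0.265), or -0.91 without the 3 libraries that stood apart. Zbtb16, another such target, stood at 2.14, 2.3, 2.82 and 3.72 FPKM in the wild type and 1.52, 0.49, 0.32 and 1.53 FPKM in the knockout, without overlap. The list of glucocorticoid and fasting targets was split, with 2 genes higher and 2 lower of 18 at an unadjusted p under 0.05. In all, 8 of the 18 were higher. The summed level of the list was 6465 to 7845 FPKM in the wild type and 6026 to 12553.5 FPKM in the knockout. Usp2, a rhythmic deubiquitinase, stood at 21.2, 20.3, 14.2 and 14.96 FPKM in the wild type and 8.61, 2.89, 3.91 and 12.8 FPKM in the knockout, and Ciart, a clock repressor, at 24.3, 26.6, 21.1 and 23.6 FPKM in the wild type and 10.5, 5.43, 3.44 and 21.1 FPKM in the knockout. Knockout mice 2 and 3 were lowest for both, neither gene overlapped, though for Ciart knockout mouse 4 was within 0.1 FPKM of wild-type mouse 3, and both differences were smaller without the 3 libraries that stood apart, going from -1.37 to -0.58 and from -1.43 to -0.63. Nr1d1, the clock repressor REV-ERB alpha, stood higher, at 12.6, 15.2, 19.1 and 14.6 FPKM in the wild type and 19.3, 29.7, 19.4 and 25.8 FPKM in the knockout, with knockout mouse 1 just above wild-type mouse 3. Of 19 clock genes, 14 were lower, 7 at that level, and 2 were higher at that level, with a median of -0.44 relative to all genes and -0.15 without the 3 libraries. Without knockout mouse 3, 4 were lower and 1 higher at that level, with a relative median of -0.29. The time of day of sampling is not in the labels, and its part in these values was not tested.

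Several genes with the smallest p belonged to none of these lists. Syne4, a nesprin of the nuclear envelope, stood at 3.61, 3.52, 3.68 and 3.86 FPKM in the wild type and 9.45, 7.53, 7.71 and 6.58 FPKM in the knockout. Its wild-type mice lay within 0.4 FPKM of each other and all knockout mice were above 6 FPKM, for a difference of 0.91 ± 0.14 (limma adjusted p = 0.232). Fbf1, a component of the distal appendages of centrioles, was lower, at 11.2, 6.72, 6.75 and 9.11 FPKM in the wild type and 3.09, 3.44, 2.03 and 2.97 FPKM in the knockout, with a difference of -1.27 ± 0.19 (limma adjusted p = 0.232). Cys1, cystin of the ciliary membrane, was lower as well, at 7.65 ± 1.91 FPKM in the wild type and 3.26 ± 0.529 FPKM in the knockout (SD, n = 4). Ide, the insulin-degrading protease, stood at 16.6, 18.4, 25.2 and 21.4 FPKM in the wild type and 11.03, 13.8, 9.18 and 10.9 FPKM in the knockout. Neither gene overlapped between the genotypes, nor did the ion channel Asic5 at 2.43 ± 0.468 and 1.21 ± 0.399 FPKM.

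Higher genes of that kind included regulators of immune signalling. Tnip3, an inhibitor of NF-kappa B signalling that passed the filter only through its knockout values, stood at 0.23, 0.09, 0.25 and 0.19 FPKM in the wild type and 0.97, 0.82, 1.38 and 0.82 FPKM in the knockout. Il2rg, the common gamma chain of cytokine receptors, stood at 4.02, 3.82, 5.6 and 5.02 FPKM in the wild type and 9.19, 7.68, 9.13 and 8.1 FPKM in the knockout, and Acod1, the itaconate-producing enzyme of activated macrophages, at 1.32, 0.62, 1.13 and 1.53 FPKM in the wild type and 2.51, 2.62, 3.38 and 2.56 FPKM in the knockout. All 3 separated the genotypes in these 8 mice, with differences of 0.74 ± 0.13, 0.77 ± 0.15 and 0.82 ± 0.16. Given its low wild-type values, the filter fixed the direction of Tnip3, so it is not counted as support. Tspan7, a tetraspanin, stood at 3.87 ± 0.523 and 7.32 ± 0.627 FPKM in wild-type and knockout livers (SD, n = 4), Ephb6, an ephrin receptor without kinase activity, at 0.52 ± 0.277 and 1.67 ± 0.175 FPKM, and the membrane protein gene Tmem39a at 10.01 ± 1.53 and 19.03 ± 3.09 FPKM.

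Interferon-stimulated genes lay close to all genes, and globin transcripts stood lower. Of 38 interferon-stimulated genes, 31 were higher (15 and 19 under these scalings), 1 at an unadjusted p under 0.05, and their median lay at -0.01 relative to all genes. The gene at that level, with 0 left without knockout mouse 3, was Oas1a, the antiviral oligoadenylate synthetase, at 7.11, 5.54, 5.56 and 6.18 FPKM in the wild type and 7.28, 8.08, 9.57 and 8.11 FPKM in the knockout. Isg15, the ubiquitin-like interferon target, stood at 22.9, 22.7, 23.1 and 21.6 FPKM in the wild type and 23.3, 38.2, 39.8 and 23.5 FPKM in the knockout. Knockout mice 2 and 3 were high, and knockout mice 1 and 4 were just above the wild type. Cell cycle genes were higher for 26 of 30 (22 under either scaling), with Rrm1, a ribonucleotide reductase subunit, at 5.14 ± 0.496 and 8.62 ± 1.78 FPKM (SD, n = 4), while Tk1, thymidine kinase, was lower, at 36.1, 34.1, 20.5 and 22.9 FPKM in the wild type and 17.2, 16.2, 8.52 and 17.7 FPKM in the knockout. Their median lay 0.23 above that of all genes 0.03 without knockout mouse 3 and 0.14 without wild-type mouse 2. Globin and erythroid transcripts, a sign of blood in the tissue, were lower for 7 of 8, 3 at an unadjusted p under 0.05, with a median of -0.88 relative to all genes. That median was -0.46 without wild-type mouse 3 and -1.20 without knockout mouse 3, where 5 genes were at that level. Hba-a1, an alpha globin gene, stood at 679, 590.4, 1351 and 371 FPKM in the wild type and 158, 280.3, 675 and 281 FPKM in the knockout. The summed blood transcripts ranged over 1271 to 5193 FPKM in the wild type and 611 to 2263 FPKM in the knockout, and their part in the other values was not tested. Cholangiocyte markers had 0 of 10 at that level, with Krt19 at 2.36, 1.68, 1.31 and 0.63 FPKM in the wild type and 0.48, 2.18, 1.09 and 2.1 FPKM in the knockout.

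**Figure D3:**
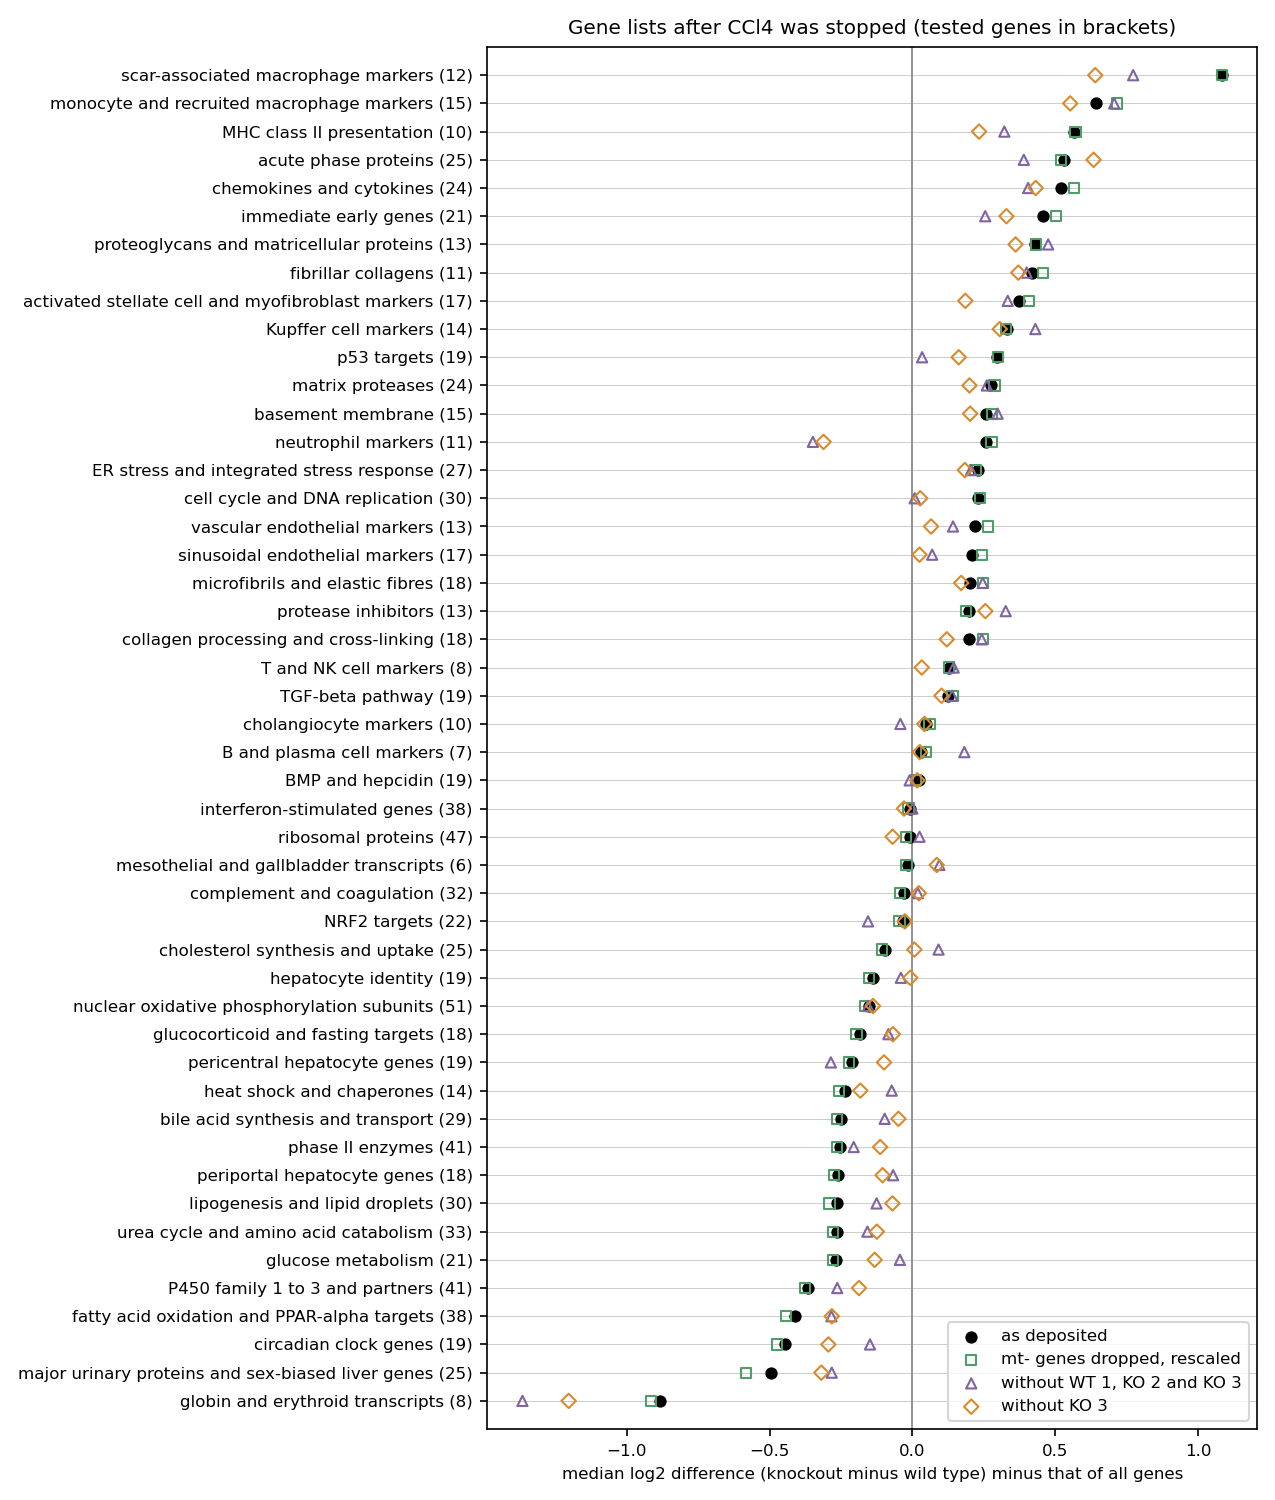
Median log2 difference, knockout minus wild type, of each gene list with at least 5 tested genes, minus the median of all genes, for the values as deposited, with mt- genes dropped, without the 3 libraries that stood apart and without knockout mouse 3. Dropping the mt- genes leaves the points close to those as deposited, and leaving out knockout mouse 3 takes scar-associated macrophages from 1.08 to 0.64 and neutrophil markers from 0.26 to -0.31.

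Dropping the 13 mt- genes and rescaling each library to its former total left 11019 genes and the same directions for the genes above. At an unadjusted p under 0.05, 549 genes (4.98%) were then higher and 196 (1.78%) lower, and 319 (2.89%) and 149 (1.35%) did not overlap. The differences of Acta2, Mmp12, Cyp4a10 and Por were 1.54, 2.20, -0.94 and -0.76. Of the genes given here, Trem2, Tyrobp, C1qb, Fabp4, Nr1d1, Isg15 and Oas1a then overlapped between the genotypes, and Acot1, Cyp7a1 and Cyp39a1 no longer did. The scores of fibrillar collagens and of activated stellate cell and myofibroblast markers, without overlap as deposited, then overlapped too. In the list of PPAR-alpha targets 12 genes were lower at an unadjusted p under 0.05 in place of 9. The balance of directions depended on the scaling. Of genes at an unadjusted p under 0.05, 82.2% were higher in the deposited values, 73.7% with mt- genes dropped, 53.5% under median-ratio scaling and 52.1% under quantile normalization.

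Genes next to Mfap2 on chromosome 4 were compared as neighbours of the targeted locus. Within 5 Mb, 70 genes were tested, of which 47 were higher, 6 higher and 3 lower at an unadjusted p under 0.05, beside 6.95% and 1.5% of all genes. The macrophage genes C1qb and C1qc are among the 6, 4.12 Mb from Mfap2. Atp13a2, a lysosomal polyamine transporter next to Mfap2, stood at 4.67, 3.97, 4.29 and 4.38 FPKM in the wild type and 5.98, 5.9, 7.09 and 5.65 FPKM in the knockout. It did not overlap between the genotypes, and its difference was 0.42 ± 0.13 (limma adjusted p = 0.512). Spen, a transcriptional co-repressor in the same interval, was lower without overlap, at 1.15 ± 0.172 and 0.728 ± 0.0984 FPKM (SD, n = 4).

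Mice of the same genotypes at the end of the 8 weeks of CCl4 are separate animals, measured in a table of their own, and give the same comparison with no shared library. Their libraries were made with the NEBNext kit alone, per the labels. There 1 of 10647 genes (0.00939%) passed the adjusted limma threshold. Of the 767 genes higher after cessation at an unadjusted p under 0.05, 749 were tested there and 706 (94.3%) were higher there too, beside 82.2% of all genes tested in both tables. At the same level in the same direction were 316 (42.2%), beside 12.4% of all genes, which is 23.9% of the genes higher at 8 weeks. Of the 166 lower genes, 156 were tested and 94 (60.3%) were lower at 8 weeks, beside 17.8% of all genes, and 24 (15.4%) at that level, beside 1.72%, which is 13.1% of the genes lower at 8 weeks. Acta2 differed by 1.49 ± 0.52 at 8 weeks and 1.39 ± 0.18 after cessation, Col3a1 by 0.97 ± 0.23 and 1.25 ± 0.28, Mmp12 by 1.49 ± 0.29 and 2.17 ± 0.57, and Por by -0.96 ± 0.25 and -0.74 ± 0.14.

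The difference between the stages was tested as an interaction over all 16 libraries, as a difference of differences within each table. No gene of 10647 passed the adjusted threshold in limma, and 294 (2.76%) had an unadjusted p under 0.05. Cyp7a1 stood at 4.96 ± 4.04 and 0.355 ± 0.269 FPKM in wild-type and knockout livers at 8 weeks (SD, n = 4), a difference of -1.87 ± 0.49, against 0.76 ± 0.29 after cessation (interaction 2.63 ± 0.58, limma adjusted p = 0.687). Mmp13 differed by 2.22 ± 0.23 at 8 weeks and 0.46 ± 0.26 after cessation (interaction -1.76 ± 0.35, limma adjusted p = 0.261). Fbf1 was at 0.37 ± 0.24 and -1.27 ± 0.19 (interaction -1.64 ± 0.32, limma adjusted p = 0.261). Globin Hbb-bt differed by 1.52 ± 0.49 at 8 weeks and -1.19 ± 0.52 after cessation, with no call on the interaction (limma adjusted p = 1.00). Of the interferon-stimulated genes, 32 of 38 were higher at 8 weeks at an unadjusted p under 0.05 and 1 after cessation, with medians of 0.63 and -0.01 relative to all genes. For PPAR-alpha targets the counts of lower genes were 0 at 8 weeks and 9 after cessation, with medians of -0.43 and -0.41. These list differences between the stages were not tested.

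**Figure D4:**
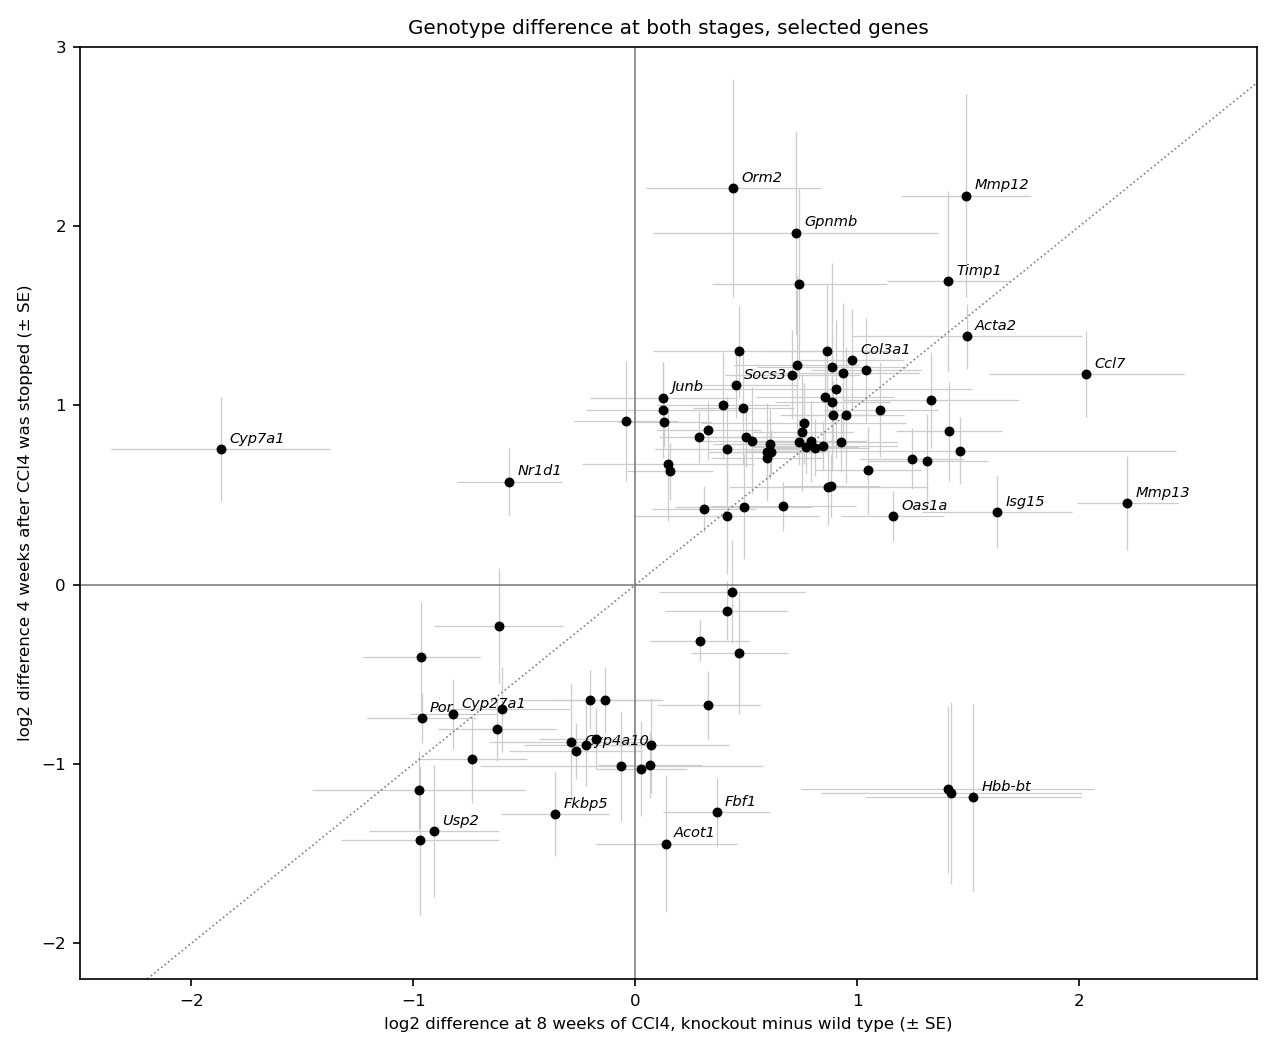
Log2 difference, knockout minus wild type, at 8 weeks of CCl4 (horizontal) and 4 weeks after it was stopped (vertical) for 95 selected genes, with SE from limma; the dotted line marks equal differences. Matrix, chemokine and macrophage genes lie in the upper right, Cyp7a1 and Nr1d1 in the upper left, and the globin genes such as Hbb-bt and the PPAR-alpha target Acot1 in the lower right.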

How the data were processed

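The deposited values were taken as FPKM, 1 table per stage; the headers name no unit, and TPM over a filtered gene set cannot be told apart from it. The build mm10 and the tools HISAT and Cufflinks are named, without their roles, per the submitters' processing notes; versions, annotation and strand setting were not given in the sources used here. Per the labels' protocols, total RNA came from frozen liver. The files hold no counts, so read depth and counting error are unknown, and values after cessation have 2 decimals.

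Genes averaging 0.5 FPKM or more were fitted within the table on log2(FPKM + 1) with limma 3.58.1 in R 4.3.3 (trended, robust empirical Bayes, statmod 1.5.0; genotype only), 2-sided, with Benjamini-Hochberg adjustment over all genes tested. Single values had exact permutation tests over 70 assignments. The fit was tested on simulated data. The steps were repeated with mt- genes dropped, other scalings, filters and pseudocounts, a mouse-number block and libraries left out.

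Named were Mfap2, the 12 genes per direction with the smallest p without overlap (no gene passed), up to 3 members per list with the smallest p, a panel of liver fibrosis genes and genes near Mfap2; the text gives some of them. The genes compared and the 51 lists were chosen with earlier results of these data known. Positions come from GENCODE M21 (12917 of 12922 identifiers found), promoter sequences from RefSeq, found for 75 of 97 genes.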

Additional observations from a re-analysis of the deposited data

Results flagged for a closer look

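Among the genes given above, the mitochondrial share and the FPKM total, 198 groups of 4 mice were checked for a mouse far from the other 3, and 15 held one. The cutoff singles out about 1 in 20 groups of independent, normally distributed values. The genes here share the same 8 mice and are not independent, so the count cannot be set against that rate. Knockout mouse 3 was far above the other knockout mice for Mmp12 at 127.33 FPKM (others 19.2 to 32.3), Gpnmb at 79.58 (11.8 to 18.9), Trem2 at 65.48 (12.8 to 14.1), C1qb at 239.19 (139.7 to 153), Atf3 at 17.17 (3.89 to 4.91), Fabp4 at 52.28 (15.43 to 20.95), Acod1 at 3.38 (2.51 to 2.62) and Foxs1 at 1.35 (0.87 to 0.95), and far below them for Tk1 at 8.52 (16.2 to 17.7). Of the other knockout mice, mouse 1 was far above for Cyp7a1 at 34.91 FPKM (14.03 to 15.68) and mouse 4 for Fbln2, a matrix glycoprotein, at 5.06 (0.91 to 1.46). In wild-type livers, mouse 1 stood apart for Foxs1 at 0.36 FPKM (0.08 to 0.12) and Mup15 at 4.31 (6.93 to 7.25), mouse 3 for Cyp7a1 at 15.13 (8.89 to 9.61) and mouse 4 for Hmox1 at 19.15 (22.4 to 22.7).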

How the results depend on the processing

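No gene passed the adjusted limma threshold under any of the 18 settings, and 92 of 95 genes kept their sign in all of them; the exceptions were Alb, Clec4f and Krt19. Of 51 lists, 42 kept their median within the spread of the list score between mice of a genotype. A mouse that stands apart widens that spread, so these 42 include lists that depend on a single mouse. Among them, neutrophil markers went from 0.26 to -0.31 without knockout mouse 3, and scar-associated macrophages from 1.08 to 0.64. The 767 higher and 166 lower genes at an unadjusted p under 0.05 became 422 and 367 after median-ratio scaling and 383 and 352 after quantile normalization, and the higher share of 82.2% became 53.5% and 52.1%. That share was 73.7% with mt- genes dropped, 78.5% with a mean of at least 2 FPKM, 78.7% without the 3 libraries that stood apart, and 78.5% with the replicate block and mt- genes dropped together. Leaving out 1 mouse at a time gave 323 (without wild-type mouse 2) to 1033 higher genes (without wild-type mouse 1), 103 (without wild-type mouse 4) to 246 lower genes, and shares of 74.8% to 86.2%; without knockout mouse 3, 445 were higher and 123 lower.

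List medians relative to all genes moved to -0.061 for nuclear oxidative phosphorylation after quantile normalization (-0.23 to -0.13 with a mouse left out), 0.74 for chemokines with a pseudocount of 0.1, and 1.02 for adipose and muscle transcripts with it, or 0.23 over all listed genes. Among genes averaging 2 FPKM or more they moved to 0.42 for cholangiocyte markers, 0.037 for glucocorticoid targets and 0.53 for mesothelial and gallbladder transcripts. Without the 3 libraries that stood apart they moved to -0.044 for glucose metabolism, -0.15 for clock genes and 0.034 for p53 targets. The causes of these moves were not tested. Mfap2 differed by -0.32 FPKM, from -0.37 to -0.27 with a mouse left out, and the exact p was 0.0571 without any one knockout mouse.

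No pairing of libraries by mouse number was seen across genotypes: same-numbered deviations from the genotype means correlated at -0.656, 0.0067, -0.141 and 0.367. So few values, each centred on 4 libraries, cannot show that pairing is absent. With the number as a replicate block, 749 genes were higher and 139 lower at an unadjusted p under 0.05, and 0 passed after adjustment. With 4 mice a side the precision is limited, the depth is unknown, and with shares of a total as values a shift in abundant transcripts moves every other gene.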
